A study of Mus musculus with 28 samples.

Results

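The expression of 44 genes of the lysosome and of autophagy was examined in mouse peritoneal resident macrophages. They were chosen by function: 18 lysosomal hydrolases (7 proteases, 9 glycosidases and 2 lipid hydrolases), 3 lipid carriers and cofactors, 4 membrane proteins, 5 proton pump genes, 2 transcription factors, 1 autophagy cargo receptor and 11 autophagosome genes. Each was read from its brightest probe set among those with a single gene symbol. All 44 had one, out of 19938 genes with such a probe set on the array. All 44 were brighter than the background floor in all 28 arrays, and 13512 genes of the array were bright enough to be tested. The floor was a log2 signal of 6.32, set from odorant and vomeronasal receptor probe sets.

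Lysosomes are acidic compartments in which hydrolases break down proteins, sugars and lipids, and a vacuolar proton pump in their membrane keeps them acidic. Autophagy wraps cytoplasm and organelles in a double membrane, the autophagosome, which fuses with a lysosome. Macrophages rely on both to digest what they engulf. The related transcription factors TFEB and TFE3 switch on many of these genes by binding E-box sequences in their promoters, in a wider motif called the CLEAR element.

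The study asked what the loss of the transcription factor ATF7 changes in these cells and what an earlier encounter with a microbial ligand leaves behind. Every group held 4 arrays of C57BL/6 background, and cells came from peritoneal washes without thioglycollate. They spent 1 night in serum-free medium, and non-adherent cells were washed off. Uninjected mice were wild type (WT) or ATF7 knockout (ATF7 KO), and no label used here gives their age. The other 5 groups were wild-type mice given 1 intravenous injection at 7 to 8 weeks of age: PBS as the control, LPS from E. coli, PGN, imiquimod (IMQ) or β-glucan (BG). Their group labels say 3 weeks, and the protocol says that cells were taken 3 to 4 weeks after injection, at 10 to 12 weeks of age. No dose was stated.

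E-box letters were common in the promoter windows of these genes, and stretches from 9 of the 13 genes that hold them are shown, because they are the letters TFEB and TFE3 are known to read. RefSeq windows of 300 bases (build GRCm38.p6), from 250 bases before to 50 bases after an annotated transcription start, were at hand for 35 of the 44 genes. The E-box CACGTG was searched as letters. It reads the same on both strands, as do the other motifs named here. It was in the windows of 13 of 35 genes (37.1%), against 8.91% of 17492 protein-coding genes of the same table and 8.09% of all 27025 genes of it. Median GC content was 59.2% over the 40 windows of these genes and 56.3% over all protein-coding windows. Ctsa, Ctsl, Atp6v0d1 and Atg7 also held E-boxes, and Ctsd a second one; these are not printed. In the stretches below the E-box is in capitals and the strand is that of the gene.
Gla, chrX:134601184-134601242, minus strand, bases 237 to 179 before the start: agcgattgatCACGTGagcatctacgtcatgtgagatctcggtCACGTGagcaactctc
Lamp1, chr8:13159090-13159160, plus strand, bases 71 to 1 before the start: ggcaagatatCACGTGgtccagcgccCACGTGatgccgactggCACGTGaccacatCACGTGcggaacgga
Mcoln1, chr8:3500438-3500489, plus strand, bases 81 to 30 before the start: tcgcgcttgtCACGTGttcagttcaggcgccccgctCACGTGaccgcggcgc
Gaa, chr11:119267813-119267838, plus strand: tctgtgcgatCACGTGtttgactctg
Atp6v1a, chr16:44139375-44139400, minus strand: ttttttaaatCACGTGataggcttaa
Ctsd, chr7:142387910-142387935, minus strand: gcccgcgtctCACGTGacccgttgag
Glb1, chr9:114401020-114401045, plus strand: gcttctgagtCACGTGgcctacagag
Naglu, chr11:101070011-101070036, plus strand: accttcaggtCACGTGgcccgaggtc
Atg5, chr10:44268315-44268340, plus strand: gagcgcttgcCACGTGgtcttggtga

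Lamp1 held 4 E-boxes within 71 bases and Gla held 2 within 59. Those of Gla are both flanked by t and a, which makes the 8-letter core of the CLEAR element, TCACGTGA. That core contains the E-box, so the counts overlap. It was found in 6 of 35 genes (17.1%): Ctsa, Ctsd, Gla, Atp6v0d1, Atp6v1a and Mcoln1. Among all protein-coding genes its share was 1.41%. The whole CLEAR element, which extends this core on both sides, was also searched. It was in 0 of the 35 genes and in 0.469% of protein-coding genes. With so rare a motif, its absence does not tell these genes from others. E-boxes were in 7 of 15 hydrolases with a window (46.7%) and in 2 of 8 autophagosome genes (25%), Atg5 and Atg7. The cAMP response element TGACGTCA, the letters that ATF/CREB factors such as ATF7 are known to bind, was in the windows of Gusb and Atg5 only, 5.71% of these genes against 2.54% of protein-coding genes. A match of letters is a description of the window and does not show that a factor binds there.

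Median signal was 107 to 115 per array, and arrays of 1 group correlated at 0.985 to 0.996 over all probe sets. The PGN and IMQ arrays stood apart from the rest in a probe set that the platform table does not list: its log2 signal was 10.81 to 11.02 in them and 11.29 to 11.60 in the other 5 groups. Whatever sets these arrays apart cannot be told apart from the treatments. The targeted gene was lower in every ATF7 KO array: 1 Atf7 probe set fell from 9.97 ± 0.11 in WT to 7.08 ± 0.10 (log2 signal, SD, n = 4), and the brighter one from 10.73 ± 0.079 to 10.28 ± 0.042. Macrophage markers such as Adgre1, Csf1r and Lyz2 were far above the floor in all 28 arrays. Lists for other cells were mixed. At or under the floor in all 28 arrays were 3 of 9 T cell genes (Cd3d, Cd3g, Cd4), 3 of 5 eosinophil genes (Epx, Prg2, Ccr3), 4 of 7 mast cell genes (among them Cpa3 and Mcpt4) and 4 of 9 neutrophil genes (among them Ly6g and Cxcr2). Others of these lists were above it in all 28: Cd5 and Il7r, Siglecf, Hdc, and Csf3r and Mmp9, respectively, while Cd3e and Il5ra were above it in 27, and Cd28 and Camp in 26. Of 13 monocyte-derived macrophage and dendritic cell genes 1, Cd226, was at or under the floor in all 28 arrays, and Retnla and Ccr7 were above it in all 28. Of 6 mesothelial genes 1, Krt19, was at or under it in all 28, and Msln and Krt8 were above it in all 28. The part of these cells in the results was not tested. B cell genes were present: of 22 listed markers 20 had a probe set and 17 were tested, and Cd79a and Ms4a1 were above the floor in every array. The mean log2 signal of the 17 was 7.73 to 8.25 in ATF7 KO and 8.36 to 9.07 in WT. It was 8.27 to 8.41 in BG and 8.55 to 8.96 in PBS. In RNA from whole cultures, fewer cells of a type and less RNA per cell cannot be told apart. Cd37 and Blnk, both on the B cell list, are also expressed by macrophages.

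Differences were tested with limma over all 28 arrays and all 13512 genes. A gene was called when its Benjamini-Hochberg adjusted p was under 0.05. All changes below are differences of mean log2 signal with their standard error (SE), and SDs are over 4 arrays. The labels describe the 4 arrays of a group as independent samples. Over the 6 comparisons 42 of the 44 genes were called at least once. The others were Gusb, a glucuronidase, and Psap, the precursor of the saposins, whose log2 signals spanned 10.21 to 10.66 and 12.89 to 13.11 over the 28 arrays. The changes were small: between the highest and the lowest group mean, the span was 0.13 (Psap) to 0.62 (Sqstm1) on the log2 scale.

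**Figure D1:**
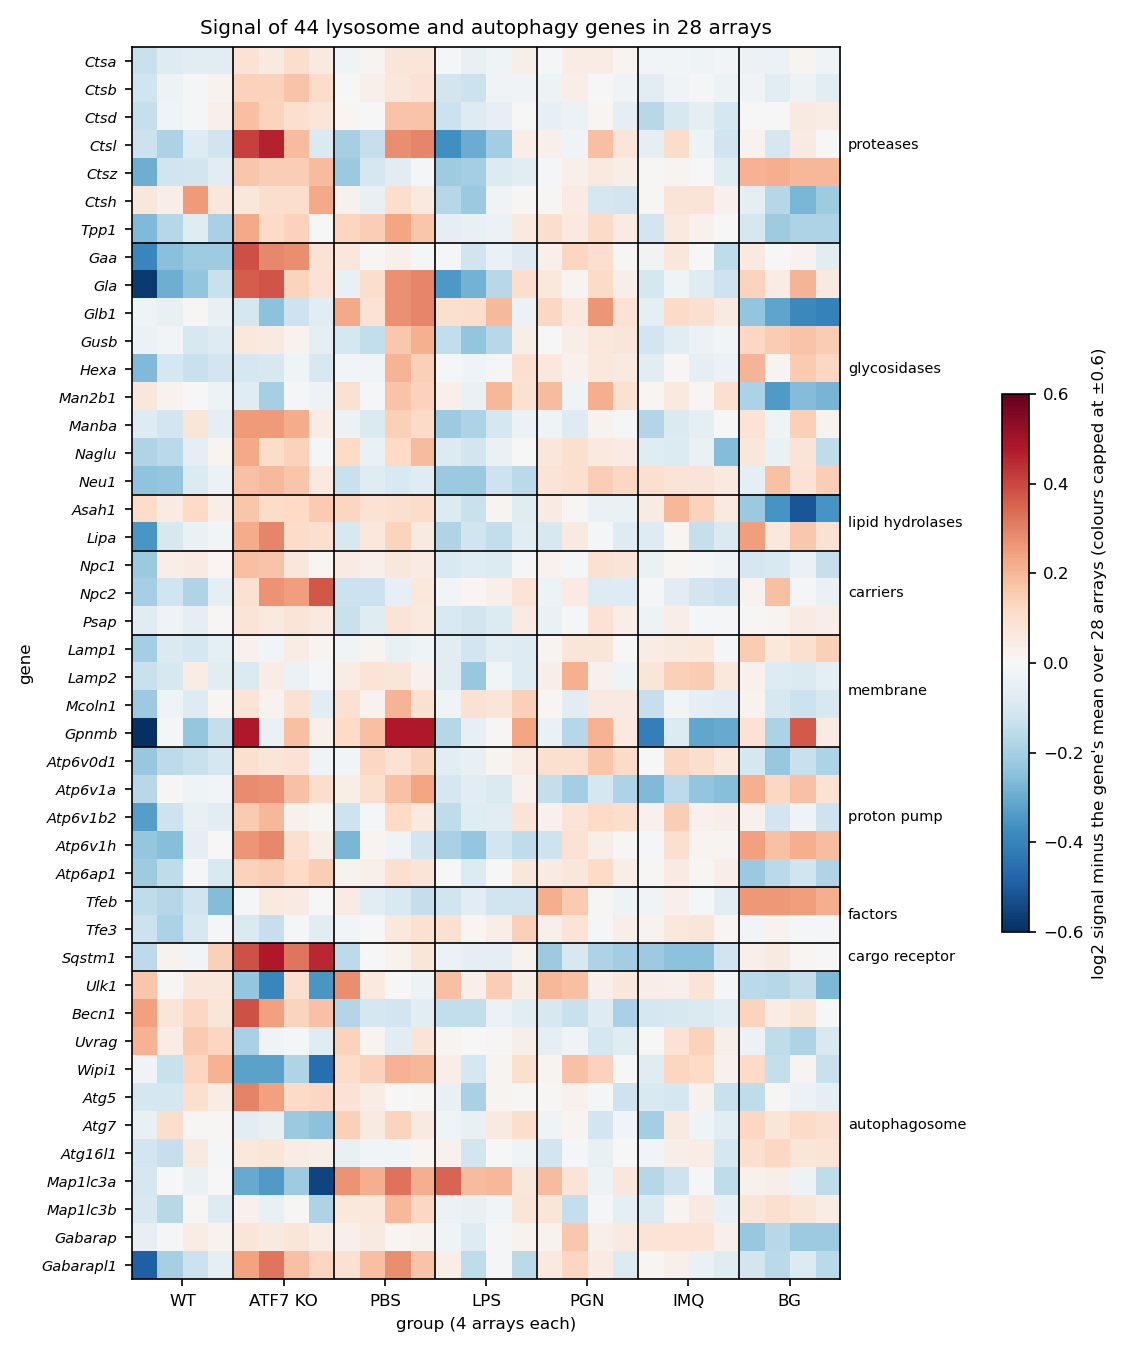
Log2 signal of the 44 genes (vertical axis, ordered by role) in the 28 arrays (horizontal axis, 4 per group), each as the difference from that gene's mean over all arrays; colours are capped at 0.6 in either direction. Lysosomal genes are mostly above their mean in the ATF7 KO arrays and below it in WT, Wipi1 and Map1lc3a are below theirs in ATF7 KO, and Glb1 and Asah1 are below theirs in BG.

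In ATF7 KO against uninjected WT, most lysosomal genes were higher and several autophagosome genes were lower. Of the 44 genes, 25 were called higher and 5 lower in ATF7 KO than in WT; among all tested genes 17.7% were called higher and 10.7% lower. Hydrolases accounted for 12 of the 25, the proton pump for 5, and carriers and membrane proteins for 2 each. All 5 genes called lower were autophagosome genes. The median change was 0.16 over the 44 genes, 0.19 over the 18 hydrolases, 0.03 over the 11 autophagosome genes and 0.0053 over all genes tested. The groups did not overlap for 22 genes that were higher and 4 that were lower, where 13.4% and 8.51% of all genes separated in this way. With every array centred on its median, 3400 genes of all were called higher and 956 lower, in place of 2388 and 1442. Of the 30 calls, 14 were kept against PBS as the control and 8 with the B cell mean as a covariate, both described below. In PBS against WT 20 of the 44 genes were called higher too (19.7% of all genes).

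The largest rises over WT were in the glycosidases Gla and Gaa. Gla encodes alpha-galactosidase A, the enzyme missing in Fabry disease. Its log2 signal was 9.41, 9.69, 9.75 and 9.85 in the WT arrays and 10.35, 10.36, 10.12 and 10.07 in the ATF7 KO arrays. All 4 knockout arrays lay above all 4 WT arrays, and the difference was 0.55 ± 0.09 (SE, adjusted p = 3.71e-05 by limma), or 1.47-fold. The Gla call was lost with the B cell mean as a covariate (0.31) and against PBS (0.08), both described below. Gaa, the acid alpha-glucosidase that degrades glycogen, read 9.80, 9.94, 9.98 and 9.98 in WT and 10.58, 10.48, 10.47 and 10.28 in ATF7 KO. It rose by 0.53 ± 0.054 (adjusted p = 7.34e-08), again without overlap. Of the other glycosidases Neu1 (sialidase; 0.30), Manba (beta-mannosidase; 0.24) and Naglu (0.21) were called higher. Those that were not called, Glb1, Man2b1, Gusb and Hexa, differed by -0.11 to 0.08. The call of Naglu was lost without the first ATF7 KO array (adjusted p = 0.0518).

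Of the 7 proteases 6 were called higher in ATF7 KO, by 0.16 to 0.37. Ctsl, a cysteine cathepsin, was 10.59, 10.53, 10.64 and 10.60 in WT and 11.13, 11.18, 10.91 and 10.63 in the knockout, so the last knockout array lay within the WT range. Its difference was 0.37 ± 0.10 (adjusted p = 0.0085), and without the second knockout array the call was lost (adjusted p = 0.052). Ctsz showed a tighter rise, from 12.33 ± 0.10 to 12.65 ± 0.020, and the groups did not overlap. Tpp1 (0.29), Ctsb (0.18), Ctsd (0.16) and Ctsa (0.16) were called as well, while Ctsh differed by 0.02. Among the lipid hydrolases Lipa, lysosomal acid lipase, was 12.17, 12.42, 12.48 and 12.50 in WT and 12.74, 12.81, 12.63 and 12.62 in ATF7 KO. It rose by 0.31 ± 0.061 (adjusted p = 0.000299) with no overlap. Asah1, acid ceramidase, differed by 0.06 and was not called.

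Cholesterol leaves the lysosome through NPC2 and NPC1. Npc2 was 11.20, 11.28, 11.22 and 11.34 in WT and 11.49, 11.67, 11.65 and 11.77 in ATF7 KO. That is a rise of 0.39 ± 0.054 (adjusted p = 5.6e-06) with the groups apart. Npc1 rose by 0.14 ± 0.047 (adjusted p = 0.0297), but its groups overlapped and the call was lost without any 1 of 3 arrays, the first WT array and the first and second knockout arrays, up to an adjusted p of 0.206. Gpnmb, a membrane glycoprotein of phagocytes that is known to rise with lysosomal stress, varied most between arrays of 1 group. It was 10.44, 11.23, 11.01 and 11.10 in WT and 11.72, 11.20, 11.42 and 11.27 in ATF7 KO, with overlap between the groups. Its difference of 0.46 ± 0.14 (adjusted p = 0.0138) lost its call without the first WT or the first knockout array (adjusted p up to 0.1). Lamp1, a main glycoprotein of the lysosomal membrane, rose by 0.13 ± 0.032 (adjusted p = 0.00317). Lamp2 and the cation channel gene Mcoln1 differed by 0.04 and 0.11 and were not called.

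All 5 proton pump genes were higher in ATF7 KO, by 0.21 to 0.31, and the groups did not overlap for any of them. Only Atp6ap1 kept its call with the B cell mean as a covariate, and only Atp6v1h against PBS, both described below. Atp6v1a, the catalytic subunit that hydrolyses ATP, rose from 11.14 ± 0.077 to 11.40 ± 0.087. Atp6ap1, an assembly factor of the pump, rose from 11.60 ± 0.085 to 11.85 ± 0.014. Of the other pump genes, a list of 14 with 13 tested, 11 were also called higher (17.7% of all genes). Atp6v0d2, a subunit isoform of macrophages and osteoclasts, rose by 1.01 ± 0.24 (adjusted p = 0.00224) and Atp6v1c1 by 0.51 ± 0.085 (adjusted p = 5.33e-05).

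Tfeb itself was 0.20 ± 0.049 higher in ATF7 KO (adjusted p = 0.00303). Its log2 signal was 8.44, 8.42, 8.47 and 8.33 in WT and 8.58, 8.65, 8.64 and 8.59 in the knockout, 2 ranges that did not meet. The Tfeb call was lost with the B cell mean as a covariate (0.15) and against PBS (0.08), both described below. Tfe3 differed by 0.03 and was not called. Of 27 other tested regulators of these genes 12 were called higher and 1 lower (17.7% and 10.7% of all genes): Tfec, a relative of Tfeb expressed in macrophages, rose by 0.49 ± 0.14 (adjusted p = 0.0105), Fnip2 rose by 0.43 ± 0.074 (adjusted p = 6.24e-05) and Foxo1 fell by 0.22 ± 0.051 (adjusted p = 0.00133). Sqstm1, which encodes the cargo receptor p62, had the smallest p of the 44 genes after Gaa. It was 11.99, 12.17, 12.13 and 12.29 in WT and 12.53, 12.63, 12.47 and 12.60 in the knockout, a rise of 0.41 ± 0.051 (adjusted p = 1.01e-06) without overlap.

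Autophagosome genes went both ways in ATF7 KO, with 2 called higher and 5 lower. Gabarapl1, an ATG8-family protein that coats the autophagosome membrane, was 9.78, 10.07, 10.14 and 10.21 in WT and 10.51, 10.59, 10.45 and 10.40 in the knockout. It rose by 0.44 ± 0.067 (adjusted p = 1.89e-05). The Gabarapl1 call was lost with the B cell mean as a covariate (0.29) and against PBS (0.04), both described below. Map1lc3a, an LC3 protein of the same family, fell from 8.54, 8.64, 8.60 and 8.64 in WT to 8.34, 8.30, 8.43 and 8.09. Its fall was 0.31 ± 0.064 (adjusted p = 0.000451), and here too the groups were apart. The other ATG8-family genes in the chosen set, Map1lc3b and Gabarap, differed by 0.03 and 0.06 and were not called. The 2 Map1lc3b probe sets gave changes of 0.03 and 0.06.

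Among the genes that start and shape the autophagosome, Wipi1, a phosphoinositide-binding protein of the forming membrane, was 7.87, 7.76, 8.02 and 8.10 in WT and 7.57, 7.57, 7.71 and 7.44 in ATF7 KO. It fell by 0.36 ± 0.073 (adjusted p = 0.000422) without overlap. Ulk1, the kinase that starts autophagy, was 9.97, 9.81, 9.87 and 9.87 in WT and 9.57, 9.41, 9.90 and 9.45 in the knockout. It fell by 0.30 ± 0.076 (adjusted p = 0.00381), although the third knockout array lay within the WT range. Uvrag, a partner of Beclin 1, fell by 0.21 ± 0.047 (adjusted p = 0.00112). Atg7 and Atg5 belong to the machinery that attaches ATG8 proteins to lipid. Atg7 fell by 0.16 ± 0.052 (adjusted p = 0.0214), and its call was lost without WT array 2 or knockout array 3 or 4 (adjusted p up to 0.0883). Atg5 was 8.56, 8.56, 8.76 and 8.71 in WT and 8.96, 8.91, 8.78 and 8.79 in ATF7 KO, a rise of 0.21 ± 0.057 (adjusted p = 0.00587) with the groups just apart. Becn1 and Atg16l1 differed by 0.10 and 0.11 and were not called.

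**Figure D2:**
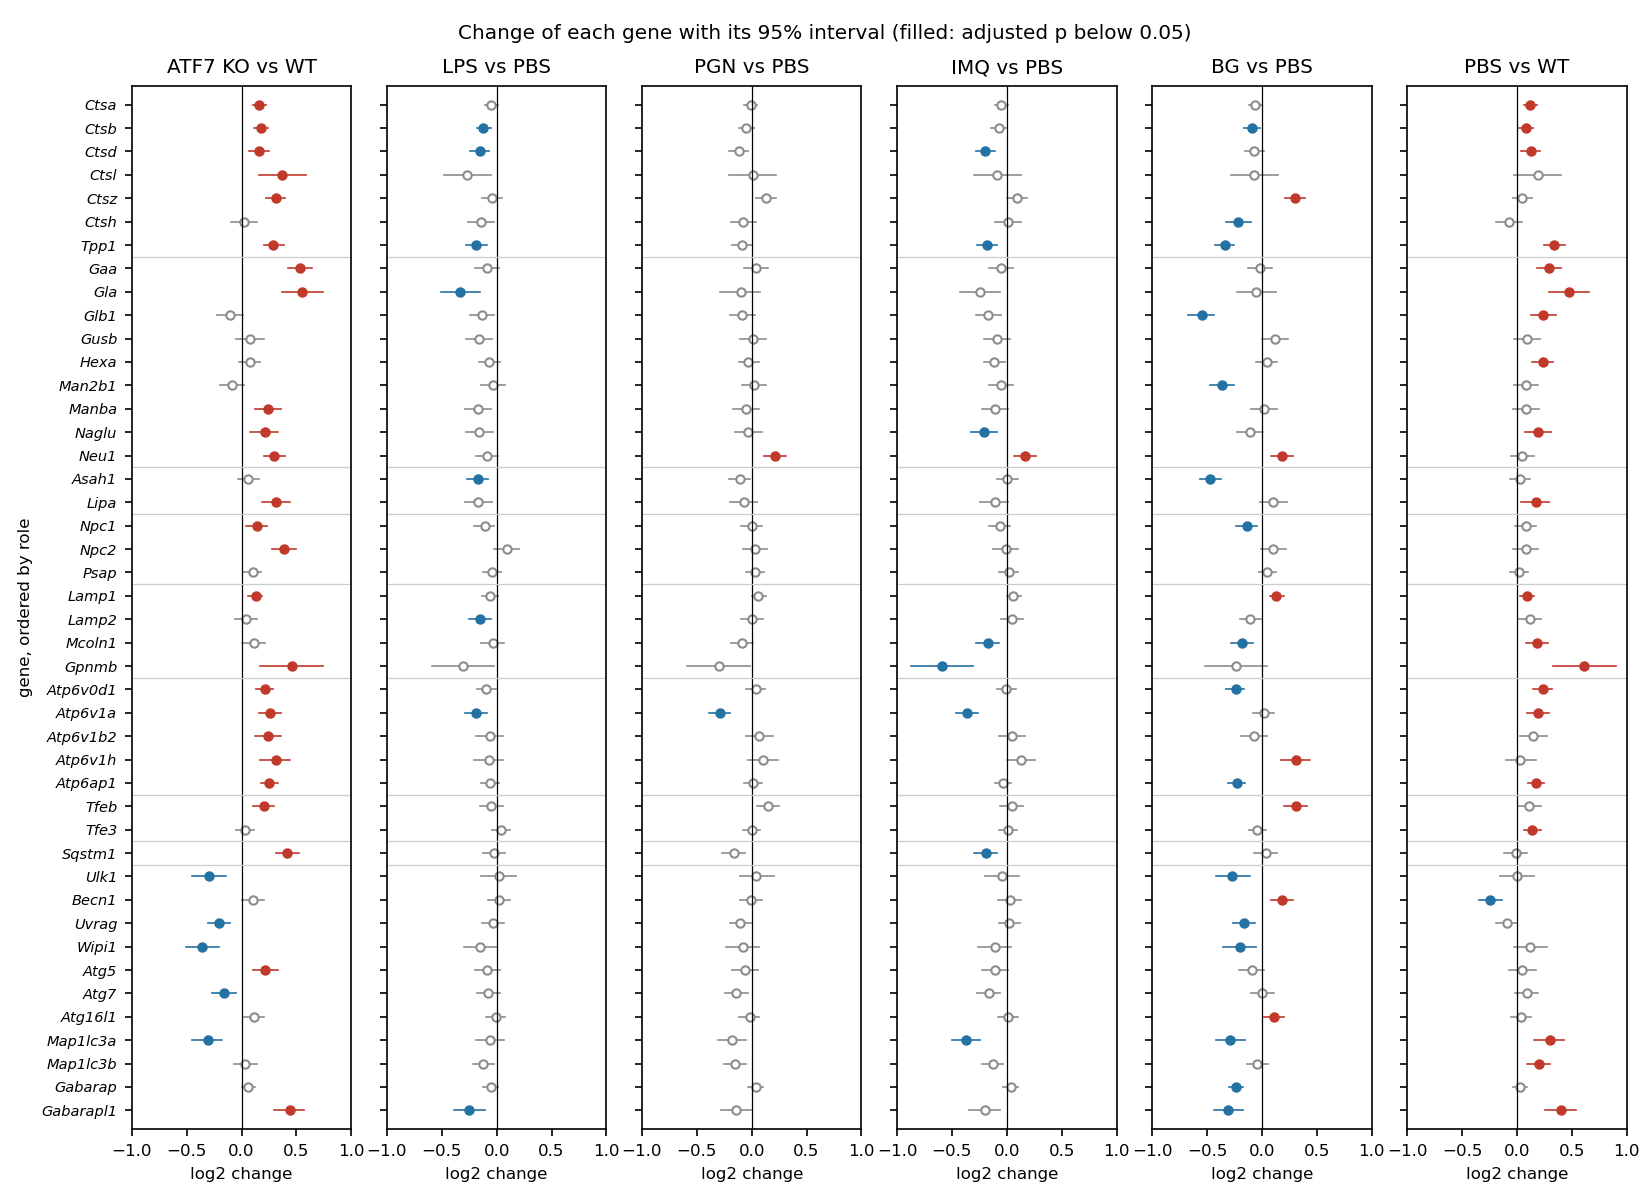
Difference of mean log2 signal with its 95% interval (horizontal axis) for each of the 44 genes (vertical axis, by role, grey lines between roles) in 6 comparisons of 4 against 4 arrays; filled red points were called higher, filled blue points lower and open points were not called by limma. ATF7 KO against WT has 25 red points above and 5 blue points at the foot among the autophagosome genes, BG against PBS has 16 blue and 7 red points, and PBS against WT has 20 red.

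The WT and ATF7 KO arrays separated in the contrast between hydrolases and autophagosome genes. For each gene the mean over 28 arrays was subtracted, and the hydrolase mean minus the autophagosome mean was taken per array. It was -0.13, -0.06, -0.09 and -0.09 in WT and 0.16, 0.15, 0.11 and 0.17 in ATF7 KO, a difference of 0.24 with a pooled SD of 0.029. The hydrolase mean alone differed by 0.20 and its groups did not overlap, while the autophagosome mean differed by -0.04 and its groups overlapped. In the 4 ligand groups and in PBS the contrast lay between -0.15 and 0.09. Against their controls it differed by -0.07 for LPS, 0.05 for PGN, 0.01 for IMQ, 0.03 for BG and 0.07 for PBS against WT, with overlapping groups each time. The autophagosome mean alone was lower than in PBS without overlap in all 4 ligand groups, by 0.07 for LPS, 0.07 for PGN, 0.09 for IMQ and 0.12 for BG, while the hydrolase groups overlapped (differences of -0.14, -0.02, -0.08 and -0.09). In PBS against WT both means were higher without overlap, the hydrolase mean by 0.15 and the autophagosome mean by 0.08. These values describe genes chosen with earlier results of these arrays known and carry no test.

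**Figure D3:**
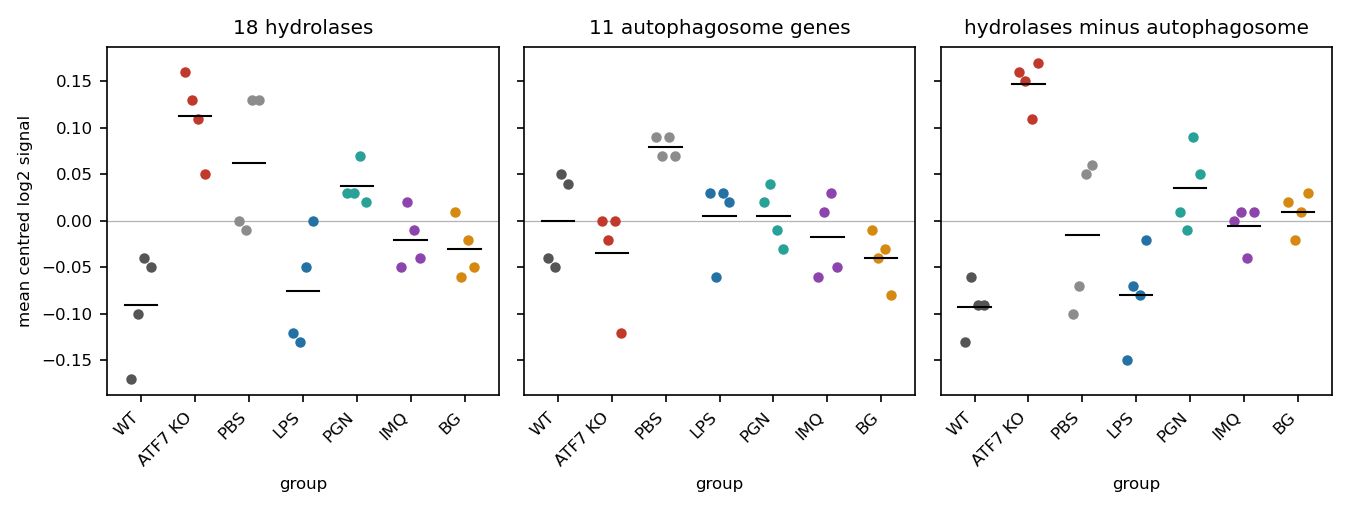
Mean centred log2 signal per array (vertical axis, the same in all panels) of the 18 hydrolases, of the 11 autophagosome genes and of their difference in the 7 groups (horizontal axis); each point is 1 array and each bar the mean of 4. In the right panel the ATF7 KO arrays sit at 0.11 to 0.17 and the WT arrays at -0.13 to -0.06, and among the hydrolases PBS splits into a pair at -0.01 to 0 and a pair at 0.13.

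Many of the ATF7 KO calls depended on whether the B cell genes were in the model and on the choice of control. The B cell mean was 0.82 lower in ATF7 KO than in WT, and their summed linear signal was 7172 to 8683 against 9530 to 13704, with no overlap. With the B cell mean of each array as a covariate, 6 genes were called higher (Gaa, Npc2, Sqstm1, Atp6ap1, Ctsz and Neu1) and 2 lower (Map1lc3a and Atg7), where 738 and 428 of all genes were called. Gaa then rose by 0.36 (adjusted p = 0.00876) and Map1lc3a fell by 0.49 (adjusted p = 0.00353). Gla rose by 0.31 (adjusted p = 0.203). Of the 30 calls 20 were lost and 2 turned in sign, Gpnmb to -0.08 (adjusted p = 0.879) and Npc1 to -0.01. Some lost calls kept their size: Wipi1 was at -0.38 (adjusted p = 0.0609), Ulk1 at -0.34 (adjusted p = 0.107), Atp6v1h at 0.29 (adjusted p = 0.113) and Atg5 at 0.19 (adjusted p = 0.259). Others shrank, among them Ctsl (0.37 to 0.12), Naglu (0.21 to 0.04), Ctsd (0.16 to 0.05), Atp6v1b2 (0.24 to 0.08) and Atp6v1a (0.26 to 0.11). The covariate separates the 2 groups by itself, and how much of each change goes with the B cell genes was not tested. The hydrolase minus autophagosome difference was 0.19 with this covariate.

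The PBS-injected wild-type mice offer a second control for ATF7 KO, although they were injected; this comparison was added after the data were seen. Against PBS, 10 of the 44 genes were called higher and 10 lower in ATF7 KO, where 17.9% and 20.6% of all genes were. Of the 30 calls against WT, 14 kept their direction and call. Sqstm1 (0.42, adjusted p = 3.78e-07), Gaa (0.24, adjusted p = 0.00104), Npc2 (0.31, adjusted p = 6.03e-05) and Ctsz (0.26, adjusted p = 3.56e-05) were higher against both controls. Map1lc3a was lower by 0.61 (adjusted p = 4.24e-08), Wipi1 by 0.48 (adjusted p = 9.75e-06) and Ulk1 by 0.30 (adjusted p = 0.00295) than in PBS. Gla (0.08), Gabarapl1 (0.04), Tpp1 (-0.05) and Atp6v0d1 (-0.03) did not pass the test there. Gpnmb had the other sign (-0.15, adjusted p = 0.381). Glb1, not called against WT, was 0.35 lower in ATF7 KO than in PBS (adjusted p = 1.9e-05), and the hydrolase minus autophagosome difference was 0.16. Hydrolase means were 0.05 to 0.16 in the ATF7 KO arrays and -0.01 to 0.13 in PBS, with overlap. Autophagosome means were -0.12 to 0 in ATF7 KO and 0.07 to 0.09 in PBS, without overlap.

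Other lysosomal and autophagy genes outside the 44 were counted in the same way for ATF7 KO against WT, where 17.7% of all genes were called higher and 10.7% lower. Of 31 other hydrolases tested, 10 were called higher, among them Acp2 (0.34 ± 0.064) and Ppt2 (0.34 ± 0.057). Another 3 were called lower, with Sgsh, a heparan sulfatase, falling by 0.60 ± 0.083 (adjusted p = 4.19e-06). Of 21 other lysosomal membrane genes 10 were higher and 2 lower, and Cd63, a tetraspanin of late endosomes, rose by 0.47 ± 0.10 (adjusted p = 0.00125). Of 10 genes that sort enzymes to lysosomes 6 were higher, Nagpa by 0.30 ± 0.048 and Sumf1 by 0.29 ± 0.051. Of 32 other autophagosome genes 6 were higher and 3 lower, shares near those of all genes, and of 8 other cargo receptors 1 was higher and 1 lower.

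β-glucan left the widest trace of the 4 ligands, and most of it was downward. In BG 7 of the 44 genes were called higher and 16 lower than in PBS, where 20.2% and 21.4% of all genes were called. The number lower, 16 of 44, is above the share among all genes, and the number higher is close to it. Median changes were -0.07 over the 44 genes and 0.019 over all genes. In each class, hydrolases and autophagosome genes, 6 were called lower and 2 higher. The groups did not overlap for 7 genes that were higher and 15 that were lower (20.9% and 19.8% of all genes). The B cell mean was 0.36 lower in BG than in PBS, without overlap, and the summed linear signal of 10 macrophage markers was 28169 to 28872 in BG and 30317 to 33536 in PBS. With the B cell mean as a covariate 20 of the 23 calls remained; the part of the macrophage markers in these changes was not tested.

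Glb1, the acid beta-galactosidase, fell most in BG. Its log2 signal was 10.38, 10.24, 10.43 and 10.45 in PBS and 9.92, 9.84, 9.77 and 9.75 in BG. It fell by 0.55 ± 0.056 (adjusted p = 1.98e-08), or 1.47-fold, and 3 of the 4 BG arrays lay below every array of the other 6 groups. Asah1 was 11.34, 11.30, 11.31 and 11.32 in PBS and 10.99, 10.86, 10.70 and 10.86 in BG, a fall of 0.47 ± 0.046 (adjusted p = 1.34e-08). All 4 BG arrays of this ceramidase were below all other arrays of the study. Man2b1, an alpha-mannosidase, was 11.63, 11.53, 11.71 and 11.68 in PBS and 11.35, 11.20, 11.28 and 11.26 in BG. It fell by 0.36 ± 0.054 (adjusted p = 5.82e-06). Tpp1, a tripeptidyl peptidase, was 11.37, 11.39, 11.48 and 11.41 in PBS and 11.14, 11.03, 11.06 and 11.06 in BG, and fell by 0.34 ± 0.045 (adjusted p = 1.47e-06). None of these 4 pairs of groups overlapped. Ctsh (0.22) and Ctsb (0.09) fell as well, the latter call being lost without PBS array 3 or 4 or BG array 2 or 4 (adjusted p up to 0.0832).

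A few lysosomal genes went the other way after β-glucan. Ctsz, another cathepsin, was 12.26, 12.38, 12.42 and 12.47 in PBS and 12.69, 12.70, 12.68 and 12.68 in BG. It rose by 0.30 ± 0.044 (adjusted p = 4.66e-06), and the BG arrays were nearly identical. Atp6v1h, the regulatory H subunit of the pump, was 8.79, 9.08, 9.04 and 8.95 in PBS and 9.31, 9.24, 9.28 and 9.25 in BG, a rise of 0.31 ± 0.065 (adjusted p = 0.000486). Among the other pump genes 2 fell, Atp6v0d1 by 0.24 ± 0.04 and Atp6ap1 by 0.23 ± 0.037, and Atp6v1a differed by 0.02, so the pump genes did not move as 1 block. Lamp1 (0.13) and Neu1 (0.18) rose, while Mcoln1 fell by 0.18 and Npc1 by 0.14. The Npc1 call was lost without the fourth BG array (adjusted p = 0.0557).

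Tfeb had its highest group mean in BG. It was 8.64, 8.53, 8.50 and 8.45 in PBS and 8.85, 8.85, 8.84 and 8.81 in BG. The rise was 0.31 ± 0.049 (adjusted p = 2e-05), with no overlap. Tfe3 differed by -0.04. Among 27 other regulators 3 were called higher and 9 lower (20.2% and 21.4% of all genes): Lamtor2, part of the complex that holds mTORC1 on lysosomes, rose by 0.50 ± 0.083 (adjusted p = 3.19e-05), and Prkaa1, a catalytic subunit of AMP-activated kinase, fell by 0.43 ± 0.054 (adjusted p = 6.94e-07).

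Autophagosome genes fell in several steps of the pathway after β-glucan. Gabarapl1 was 10.36, 10.45, 10.55 and 10.44 in PBS and 10.16, 10.11, 10.19 and 10.11 in BG, a fall of 0.31 ± 0.067 (adjusted p = 0.000678). Gabarap was 12.70, 12.72, 12.68 and 12.69 in PBS and 12.44, 12.50, 12.45 and 12.45 in BG, and fell by 0.24 ± 0.031 (adjusted p = 1.15e-06). Map1lc3a was 8.91, 8.86, 8.97 and 8.86 in PBS and 8.67, 8.68, 8.61 and 8.49 in BG, down by 0.29 ± 0.064 (adjusted p = 0.000813). So 3 of the 4 ATG8-family genes in the chosen set fell, and Map1lc3b differed by -0.04. Ulk1 went from 10.08, 9.86, 9.80 and 9.77 in PBS to 9.64, 9.63, 9.66 and 9.53 in BG, a fall of 0.27 ± 0.076 (adjusted p = 0.00643) with the groups apart. Wipi1 was 8.00, 8.03, 8.10 and 8.09 in PBS and 8.01, 7.75, 7.91 and 7.76 in BG. Its fall of 0.20 ± 0.073 (adjusted p = 0.0289) came with overlapping groups and was lost without PBS array 3 or 4 or BG array 2 or 4 (adjusted p up to 0.0994). Uvrag fell by 0.16 ± 0.047. Becn1 rose by 0.18 ± 0.049 (adjusted p = 0.00485), and Atg16l1 rose by 0.11 ± 0.044 (adjusted p = 0.0449), a call that was lost when any 1 of the 8 arrays was left out (adjusted p up to 0.105).

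Genes of the wider pathway were counted after β-glucan too, where 20.2% of all genes were called higher and 21.4% lower. Of 31 other hydrolases 18 were called lower and 2 higher. Sgsh fell by 0.63 ± 0.083 (adjusted p = 1.24e-06) and Galc, the galactosylceramidase, by 0.62 ± 0.071 (adjusted p = 1.75e-07). Of 32 other autophagosome genes 13 were lower and 2 higher, with Atg4c, a protease that processes ATG8 proteins, down by 0.62 ± 0.088 (adjusted p = 3.79e-06). Of 8 other cargo receptors 5 were lower and 1 higher, and of 21 other membrane genes 7 were lower and 1 higher. Of 13 other pump genes 2 were higher and 1 lower.

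**Figure D4:**
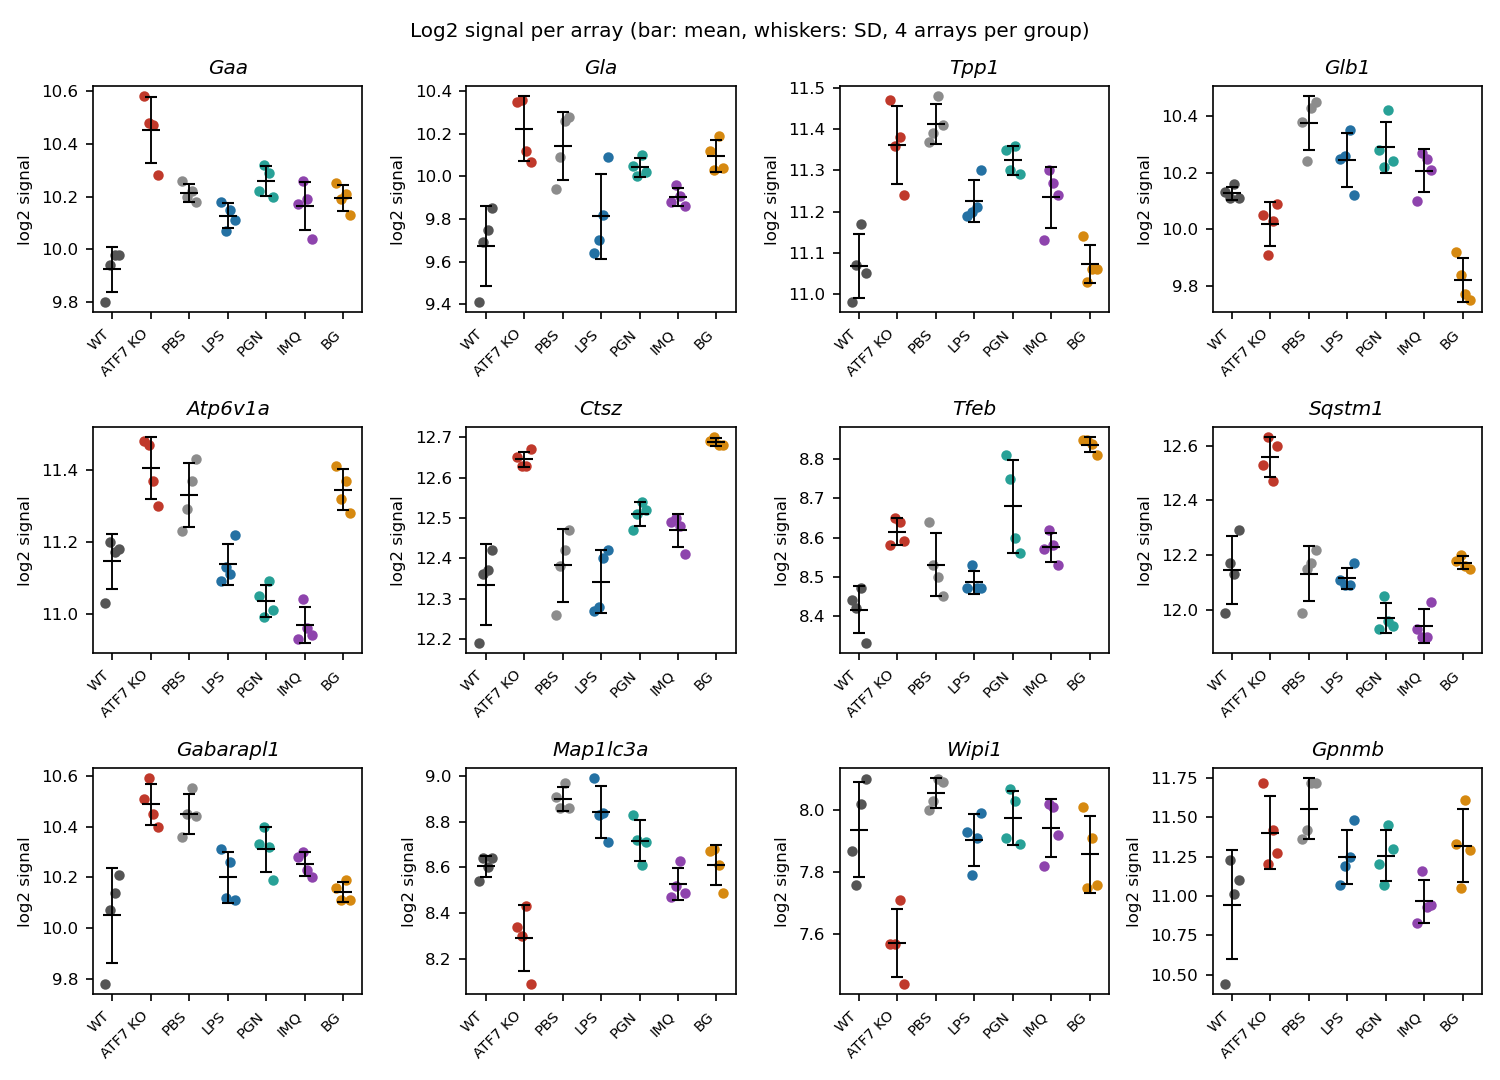
Log2 signal (vertical axes, a separate scale for each gene) of 12 genes in the 28 arrays by group (horizontal axes); each point is 1 array, bars are means and whiskers SD of 4. Gaa and Sqstm1 stand highest in ATF7 KO, Map1lc3a and Wipi1 lowest there, Glb1 is lowest and Tfeb highest in BG, and Atp6v1a is lower in LPS, PGN and IMQ than in PBS.

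LPS left smaller changes, and the called ones were downward. In LPS 8 of the 44 genes were called lower than in PBS, where 5.52% of all genes were, and 0 were called higher by limma (4.36% of all genes; 0 of the 44 also at an unadjusted p under 0.05). Changes were below 0 for 40 of the 44 genes, with a median of -0.09 against -0.013 over all genes. The groups did not overlap for 10 genes, all lower, where 8.96% of all genes separated in that direction. Centring arrays on their medians gave 391 genes of all higher and 1219 lower, in place of 589 and 746. Gla was 9.94, 10.09, 10.26 and 10.28 in PBS and 9.64, 9.70, 9.82 and 10.09 in LPS. It fell by 0.33 ± 0.09 (adjusted p = 0.0269), with the fourth LPS array inside the PBS range. Tpp1 was 11.19, 11.20, 11.21 and 11.30 in LPS, below all 4 PBS arrays, and fell by 0.19 ± 0.045 (adjusted p = 0.0198). Asah1, at 11.13, 11.08, 11.23 and 11.14 in LPS, fell by 0.17 ± 0.046 (adjusted p = 0.0255) without overlap. Ctsd was 12.81, 12.80, 12.97 and 12.97 in PBS and 12.67, 12.72, 12.75 and 12.80 in LPS, a fall of 0.15 ± 0.042 (adjusted p = 0.0287). Ctsb fell by 0.12 and Lamp2 by 0.15.

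Outside the hydrolases, Atp6v1a was 11.23, 11.29, 11.37 and 11.43 in PBS and 11.09, 11.13, 11.11 and 11.22 in LPS. It fell by 0.19 ± 0.048 (adjusted p = 0.021), and the groups were just apart. Gabarapl1, the 1 autophagosome gene called, was 10.31, 10.12, 10.26 and 10.11 in LPS and fell by 0.25 ± 0.067 (adjusted p = 0.0259). All 8 LPS calls were lost without the third PBS array or without the second LPS array, 7 of them without the fourth PBS array and 5 without the first LPS array. The PBS arrays were uneven for some genes: Gpnmb was 11.36 and 11.42 in the first pair and 11.72 in both arrays of the second. Of 13 other pump genes 4 were lower and 1 higher in LPS (5.52% and 4.36% of all genes), with Atp6v1c1 down by 0.42 ± 0.085 (adjusted p = 0.0128).

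After PGN 1 of the 44 was called higher and 1 lower, where 2.09% and 1.81% of all genes were. Atp6v1a was 11.05, 10.99, 11.09 and 11.01, below all PBS arrays, and fell by 0.29 ± 0.048 (adjusted p = 0.000596). Neu1, the lysosomal sialidase, was 8.68, 8.74, 8.72 and 8.74 in PBS and 8.89, 8.91, 8.96 and 8.94 in PGN, a rise of 0.21 ± 0.049 (adjusted p = 0.0151) that was lost without the third PGN array (adjusted p = 0.054). The groups did not overlap for 2 genes that were higher and 5 that were lower (6.33% and 4.84% of all genes). The other 42 genes differed by -0.30 to 0.15, and the autophagosome genes by -0.18 to 0.04.

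After imiquimod 8 of the 44 genes were called lower and 1 higher, against 2.60% and 3.09% of all genes. The groups did not overlap for 12 genes that were lower and 1 that was higher (6.21% and 8.97% of all genes). Gpnmb was 11.36, 11.42, 11.72 and 11.72 in PBS and 10.83, 11.16, 10.93 and 10.94 in IMQ. Its fall of 0.59 ± 0.14 (adjusted p = 0.0107) was the largest of the 44 in any ligand group, 1.51-fold, and the groups did not overlap. The IMQ mean of Gpnmb, 10.97, was near the 10.94 of uninjected WT, and the PBS mean was 11.56. Atp6v1a, at 10.93, 11.04, 10.96 and 10.94, fell by 0.36 ± 0.048 (adjusted p = 3.86e-05). Map1lc3a was 8.47, 8.52, 8.63 and 8.49, below all PBS arrays, and fell by 0.37 ± 0.064 (adjusted p = 0.000771). Ctsd, at 12.63, 12.70, 12.74 and 12.69, fell by 0.20 ± 0.042 (adjusted p = 0.00495). These 4 calls held when any 1 array was left out.

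The other imiquimod calls depended on single arrays. Sqstm1 was 11.99, 12.15, 12.17 and 12.22 in PBS and 11.93, 11.90, 11.90 and 12.03 in IMQ, a fall of 0.19 ± 0.051 (adjusted p = 0.0234) with overlap. Naglu, which removes N-acetylglucosamine from heparan sulfate, was 9.45, 9.29, 9.45 and 9.52 in PBS and 9.26, 9.25, 9.29 and 9.07 in IMQ (fall of 0.21 ± 0.06; adjusted p = 0.0355). Tpp1, at 11.13, 11.30, 11.27 and 11.24, fell by 0.18 ± 0.045 (adjusted p = 0.0179). Mcoln1 was 11.05, 10.98, 11.16 and 11.05 in PBS and 10.82, 10.94, 10.90 and 10.89 in IMQ, and fell by 0.17 ± 0.05 (adjusted p = 0.0415). Neu1 was again higher, at 8.91, 8.89, 8.89 and 8.87 (0.17 ± 0.049; adjusted p = 0.0375). Leaving out 1 array ended the call of Neu1 in 8 of 8 cases, of Mcoln1 in 7, Naglu in 6, Sqstm1 in 5 and Tpp1 in 2, with adjusted p up to 0.152.

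PBS itself went with higher lysosomal levels than no injection at all. Against WT, 20 of the 44 genes were called higher and 1 lower in PBS, where 19.7% and 12.9% of all genes were. The groups did not overlap for 15 and 1 genes, respectively (14.1% and 8.75% of all genes). After centring on array medians, 3903 genes of all were higher and 943 lower, in place of 2667 and 1748. The injected mice had an age and an injection that the uninjected mice may not share, and these cannot be told apart. Gpnmb rose most, by 0.61 ± 0.14 (adjusted p = 0.0021), from 10.44, 11.23, 11.01 and 11.10 in WT to 11.36, 11.42, 11.72 and 11.72. Gla, at 9.94, 10.09, 10.26 and 10.28 in PBS, rose by 0.47 ± 0.09 (adjusted p = 0.000476). Tpp1 was 10.98, 11.07, 11.17 and 11.05 in WT, and 0.34 ± 0.045 higher in PBS (adjusted p = 9.9e-06). Gaa, at 10.26, 10.20, 10.22 and 10.18, rose by 0.29 ± 0.054 (adjusted p = 0.000422). None of these genes had overlapping groups. Glb1 was 10.13, 10.11, 10.16 and 10.11 in WT and 0.24 ± 0.056 higher in PBS (adjusted p = 0.00217). Hexa, the alpha subunit of hexosaminidase, was 11.38, 11.54, 11.51 and 11.53 in WT and 11.63, 11.63, 11.85 and 11.79 in PBS, a rise of 0.24 ± 0.047 (adjusted p = 0.000671). Some falls from PBS after a ligand ended at the WT mean: Tpp1 was 11.07 in BG and in WT, and Atp6v1a 11.14 in LPS and in WT. Others ended below it: Glb1 was 9.82 in BG and 10.13 in WT, Asah1 10.85 and 11.29, and Atp6v1a 10.97 in IMQ.

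The autophagy genes that rose in PBS over WT included 3 of the ATG8 family. Gabarapl1 rose by 0.40 ± 0.067 (adjusted p = 0.000138), from 9.78, 10.07, 10.14 and 10.21 to 10.36, 10.45, 10.55 and 10.44. Map1lc3a rose by 0.30 ± 0.064 (adjusted p = 0.00144), from 8.54, 8.64, 8.60 and 8.64 to 8.91, 8.86, 8.97 and 8.86. Map1lc3b was 10.55, 10.48, 10.65 and 10.57 in WT and 10.71, 10.71, 10.84 and 10.77 in PBS, and rose by 0.20 ± 0.05 (adjusted p = 0.0049). Map1lc3a was thus lower than WT in ATF7 KO and higher than WT in PBS. Tfe3, at 10.39 ± 0.049 in PBS and 10.25 ± 0.076 in WT, rose by 0.14 ± 0.039 (adjusted p = 0.00908) with overlap. Becn1, which encodes Beclin 1 of the lipid kinase complex, was the gene called lower: 9.22, 9.05, 9.10 and 9.05 in WT and 8.80, 8.87, 8.86 and 8.91 in PBS, a fall of 0.25 ± 0.049 (adjusted p = 0.000744). The calls of Ctsb, Lipa, Ctsd, Naglu, Lamp1 and Mcoln1 in this comparison were each lost without at least 1 array, among them the first WT array in every case (adjusted p up to 0.217). Outside the 44 genes, 15 of 31 other hydrolases were higher and 1 lower in PBS, and of 32 other autophagosome genes 11 were higher and 1 lower, where 19.7% and 12.9% of all genes were. Cd63 rose by 0.71 ± 0.10 (adjusted p = 3.61e-05).

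ATF7 KO and PBS were both compared with the same 4 WT arrays, and the 4 ligands and PBS against WT share the 4 PBS arrays, so these comparisons are not independent. Whether an effect of ATF7 loss differed from an effect of a ligand was therefore tested as a difference of differences, which uses separate arrays on each side. Each such difference equals ATF7 KO minus the ligand group, plus PBS minus WT. The shift of PBS from WT is thus part of every one of them and cannot be told apart here. The tests for the 4 ligands also reuse the same ATF7 KO, WT and PBS arrays. The change in ATF7 KO exceeded that in LPS for 28 of the 44 genes and was below it for 3, where 18.8% and 10.5% of all genes differed in this way. Against PGN the counts were 17 and 1 (10.6% and 7.19% of all genes), against IMQ 22 and 1 (11% and 8.53%), and against BG 25 were higher and 0 lower by limma (18% and 11.2%; 1 gene was lower at an unadjusted p under 0.05). Gaa differed from every ligand, by 0.62 from LPS (adjusted p = 4.64e-06), 0.49 from PGN (7.74e-05), 0.58 from IMQ (6.69e-06) and 0.55 from BG (8.08e-06). For Ulk1 the change in ATF7 KO was lower than in LPS by 0.32 (adjusted p = 0.028) and than in PGN by 0.34 (adjusted p = 0.0278).

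β-glucan and LPS were compared directly, without the PBS arrays. Of the 44 genes 12 were higher and 11 lower in BG than in LPS, where 18.2% and 16.7% of all genes were. Ctsz was 0.34 higher (adjusted p = 1e-06), Tfeb 0.35 higher (adjusted p = 3.69e-06) and Atp6v1h 0.38 higher (adjusted p = 5.25e-05) in BG. Glb1 was lower by 0.43 (adjusted p = 1.45e-06), Man2b1 by 0.34 (adjusted p = 2.07e-05), Asah1 by 0.29 (adjusted p = 1.67e-05) and Map1lc3a by 0.23 (adjusted p = 0.00612). Against PGN 9 were higher and 9 lower in BG (12.9% and 18.9% of all genes), and against IMQ 12 and 11 (15.4% and 21.3%). Glb1, Asah1, Man2b1, Tpp1 and Gabarap were lower and Ctsz, Tfeb and Atp6v1h higher in BG than in either. Atp6v1a was 0.31 higher in BG than in PGN (adjusted p = 1.59e-05) and 0.38 higher than in IMQ (adjusted p = 9.03e-07).

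Of the 44 genes 6 were lower in LPS than in PGN (9.1% of all genes) and 0 were higher by limma (2.98% of all genes; 2 of the 44 at an unadjusted p under 0.05). Against IMQ 3 were higher and 7 lower in LPS (6.45% and 12.7% of all genes). Neu1, the sialidase that rose after PGN and imiquimod, was lower in LPS by 0.30 than in PGN (adjusted p = 0.000453) and by 0.26 than in IMQ (adjusted p = 0.00104). Map1lc3a was 0.32 higher in LPS than in IMQ (adjusted p = 0.00182). Between PGN and IMQ 0 of all 13512 genes were called in either direction by limma. Of the 44 genes 4 were higher and 2 lower in PGN than in IMQ at an unadjusted p under 0.05. The differing counts of calls against PBS are therefore not a difference found between PGN and IMQ.

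The genes with E-boxes were set beside the others. In ATF7 KO against WT, 17.7% of all genes were called higher and 10.7% lower. Of the 13 genes with an E-box in the window 10 were called higher and 1 lower, with a median change of 0.21. Of 22 genes whose window had no E-box 11 were higher and 3 lower (median 0.15), and of 9 genes without a window 4 were higher and 1 lower (median 0.11). In PBS against WT the numbers called higher were 10 of 13 and 8 of 22 (19.7% of all genes), with medians of 0.19 and 0.10. In BG against PBS they were 1 of 13 and 3 of 22 (20.2% of all genes), and the numbers lower 3 of 13 and 8 of 22 (21.4%). The numbers lower were 3 of 13 and 3 of 22 in LPS (5.52%) and 4 of 13 and 3 of 22 in IMQ (2.60%). These counts describe this set of genes and were not tested.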

How the data were processed

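RNA of 28 arrays was measured on an Affymetrix gene array, in 7 groups of 4 taken from the labels. The deposited table holds linear intensity values that the authors obtained by RMA in Affymetrix Expression Console, per the submitters' processing notes. Its version is not given in the sources used here, nor is a genome build. RMA equalises the distributions of arrays, so a change of all genes at once would not be seen. Here log2 was taken. Of 35556 probe sets 21789 have 1 gene symbol in the platform table, 1621 several and 12146 none. For the floor, 1210 probe sets of odorant or vomeronasal receptors were averaged over the arrays and the 95th percentile was taken (80.04 in linear signal), and a probe set was kept when above it in at least 4 arrays. The probe set with the highest mean stands for a gene.

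A model with 1 mean per group was fitted with limma 3.58.1 in R 4.3.3 (lmFit, eBayes with an intensity trend), and p-values were adjusted over 13512 genes within each comparison. The code was tested on simulated data. Promoter windows come from RefSeq (GRCm38.p6). Figures were drawn with matplotlib 3.10.9. The members, lists and alternatives were chosen with earlier results of these data known, so list counts stand beside those of all genes and carry no p. Per-array values are printed for up to 6 lysosomal genes and up to 6 autophagy genes or transcription factors per comparison, those with the largest change among called genes; of other lists up to 2 called genes per direction are named. Levels of different probe sets were not compared. Alternatives tried were median centring, renewed quantile normalisation, no filter, no intensity trend, the mean of a gene's probe sets, a fit of the compared groups alone, B cell markers as a covariate, the replicate number as a block, each array left out in turn and, added after the data were seen, PBS arrays as control for ATF7 KO.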

Additional observations from a re-analysis of the deposited data

Results flagged for a closer look

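In 217 sets of 4 arrays (30 genes and the hydrolase minus autophagosome measure, in each of 7 groups) 1 array stood apart from the other 3 by Dixon's test in 5, and chance gives about 1 in 20. Atp6v1a was 11.03 in the first WT array and 11.17 to 11.20 in the other three. Tfeb was 8.53 in the second LPS array and 8.47 in the other three. Gabarap was 12.70 in the fourth IMQ array and 12.75 in the other three. Hexa was 11.62 in the third ATF7 KO array and 11.54 to 11.55 in the other three. The hydrolase minus autophagosome measure was -0.04 in the third IMQ array and 0 to 0.01 in the other three.

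The change in ATF7 KO against WT differed from the change in a ligand group against PBS, by limma's test of the difference, for 31 of the 44 genes with LPS, 18 with PGN, 23 with IMQ and 25 with BG. Of all genes 18.8% were higher and 10.5% lower in this test with LPS, and 10.6% and 7.19% with PGN. With IMQ the shares were 11% and 8.53%, and with BG 18% and 11.2%. Each of these differences includes the shift of PBS from WT.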

How the results depend on the processing

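For ATF7 KO against WT (25 higher, 5 lower) the B cell covariate gave 6 and 2, and PBS arrays as control gave 10 and 10. Among all genes the covariate gave 738 higher and 428 lower and PBS as control 2420 and 2788, in place of 2388 and 1442. The hydrolase minus autophagosome difference of 0.24 became 0.19 and 0.16, and Gpnmb turned to -0.08 and -0.15. Renewed quantile normalisation gave 3 genes lower for LPS, 3 for PGN, 14 for IMQ and 2 for PBS against WT, in place of 8, 1, 8 and 1. Among all genes it gave 438, 373, 582 and 1436 lower, in place of 746, 245, 351 and 1748. A fit of only the compared groups gave 2 lower for LPS and 12 higher for PBS against WT, in place of 20. For IMQ 0 genes were higher in place of 1 with arrays centred on their medians, with no filter on dim genes and with the B cell covariate, and 4 were lower in place of 8 with that covariate. Among all genes that covariate gave 273 higher and 203 lower for IMQ, in place of 418 and 351. Centring gave 266 higher. The causes were not tested. With 1 array left out, genes higher and lower were 22 to 26 and 4 to 5 for ATF7 KO, 0 and 0 to 12 for LPS, 0 to 2 and 1 to 2 for PGN, 0 and 4 to 9 for IMQ, 6 to 8 and 13 to 17 for BG, and 14 to 23 and 1 for PBS against WT. The difference of 0.24 was then 0.23 to 0.25, and those of the other comparisons -0.09 to -0.04 (LPS), 0.02 to 0.08 (PGN), -0.01 to 0.04 (IMQ), 0 to 0.05 (BG) and 0.05 to 0.10 (PBS against WT). The replicate numbers of the labels showed no steady pairing of arrays. Deviations of same-numbered arrays correlated at -0.35 to 0.10 for ATF7 KO and WT, -0.20 to 0.45 for LPS and PBS and 0.05 to 0.26 for PGN and PBS. In no comparison was every pair above 0.1, which does not show that arrays were unpaired. With the replicate number as a block, genes higher and lower were 26 and 5 for ATF7 KO, 9 lower for LPS, 1 and 2 for PGN, 1 and 8 for IMQ, 6 and 16 for BG, and 22 and 1 for PBS against WT. Centring arrays on their medians changed the split of all called genes to 3400 higher and 956 lower in ATF7 KO (2388 and 1442 otherwise), 391 and 1219 in LPS (589 and 746) and 3903 and 943 in PBS against WT (2667 and 1748). All 44 genes were above the floor in all 28 arrays, and with 4 arrays a group the smallest exact p of a single comparison is 0.0286.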
